A study of Drosophila melanogaster with 10 samples.

Results

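The genes of the ecdysone receptor and its early response were described in Drosophila S2 cells, a line of late embryonic origin that resembles blood cells. The cells had been treated with dsRNA against JIL-1, a chromatin-bound histone H3 kinase, or with a control dsRNA (RNA interference, RNAi). The 7 genes were EcR, usp, br, Hr39, Eip74EF, Eip75B and ftz-f1. Every probe set whose platform annotation gave 1 of these symbols alone was taken, which gave 13 of the 18952 probe sets in the table, from 5 of the 11982 genes that had a probe set with 1 symbol. There were 5 for br, 4 for Hr39, 2 for ftz-f1 and 1 each for EcR and usp. Eip74EF and Eip75B had none under this rule and were not analysed here.

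Ecdysone is the steroid hormone that times moulting and metamorphosis in insects. It binds a heterodimer of the nuclear receptors EcR and Usp, which then switches on a small set of early genes whose products are themselves transcription factors and control the later target genes. Broad (br) is an early gene that encodes zinc finger factors in several isoforms, while Hr39 and ftz-f1 encode related orphan nuclear receptors that respond to the hormone pulses. The labels name no addition of ecdysone to these cultures.

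The series compared 5 control samples with 5 JIL-1 RNAi samples in 2 labelled batches. In batch A, 3 control samples (replicates 1 to 3) received dsRNA against GST and 2 samples (JIL-1 RNAi replicates 1 and 2) a dsRNA labelled JIl-1 5prime. In batch B, 2 control samples (replicates 4 and 5) received dsRNA against EGFP and 3 samples (JIL-1 RNAi replicates 3 to 5) a dsRNA labelled JIl-1 3prime. All cultures received 10 µg of dsRNA, with 1 h in serum-free medium, were split at day 3 and were collected at day 7. The series calls the samples biological replicates, and each batch had its own control and its own JIL-1 dsRNA, so that batch and dsRNA cannot be told apart.

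Values are log2 expression per probe set, which is a level, and changes are log2 differences with their standard error (SE). Levels of different probe sets are not comparable with each other. Differences were fitted with limma, batch included as a term, over the 7096 probe sets with a mean level above 4. P-values were adjusted over all 7096 by the Benjamini-Hochberg method. Of the 13 probe sets 11 passed this filter. A probe set was called changed at an adjusted p under 0.05.

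JIL-1 itself was measured at 5.79, 5.95 and 5.66 in the batch A controls and at 4.35 in both batch A JIL-1 RNAi samples. In batch B it was at 7.53 and 7.34 in the controls and at 5.66, 5.78 and 5.84 in the JIL-1 RNAi samples. JIL-1 was lower in every knockdown sample than in the controls of its batch, by 1.56 over both batches (log2 difference -1.56, SE 0.08, adjusted p = 6.92e-07). The JIL-1 level of the batch B knockdown samples lay within the range of the batch A controls. In such bulk samples, fewer cells with a transcript and less of it per cell cannot be told apart.

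All 12 blood cell markers lay above the filter, while the summed fat body, ring gland and ovarian somatic markers lay at or near the lower end of the scale in every sample. Markers of other cell types passed the filter too, namely elav (mean 6.32) and brp (6.43) of neurons and bt (8.83) of muscle. The germ line marker bam did not pass, but reached 5.43 in JIL-1 RNAi replicate 1. The median level of the tested probe sets ran from 9.16 to 9.33 between arrays. The signal from the 3' end of the actin control transcript exceeded that from its 5' end by 0.54 to 0.66 in batch A and by 1.54 to 2.01 in batch B, and for GAPDH by 0.38 to 0.74 and 1.23 to 1.54. This 3' minus 5' difference is a measure of RNA integrity and labelling. It did not overlap between batches, as the plot of the control probe sets shows, so this measure and the batch cannot be told apart. Within batch B the actin value was 1.84 and 2.01 in the controls and 1.54 to 1.72 after JIL-1 RNAi. With it as a covariate br 1635691_at, br 1637312_a_at and Hr39 1630002_s_at kept their calls described next (changes of 0.65, 0.80 and 0.72, adjusted p = 0.00936, 0.00445 and 0.00264). EcR lost its call in that limma fit (0.38, adjusted p = 0.096), and 5 other ecdysone pathway genes were called in place of 9.

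**Figure D1:**
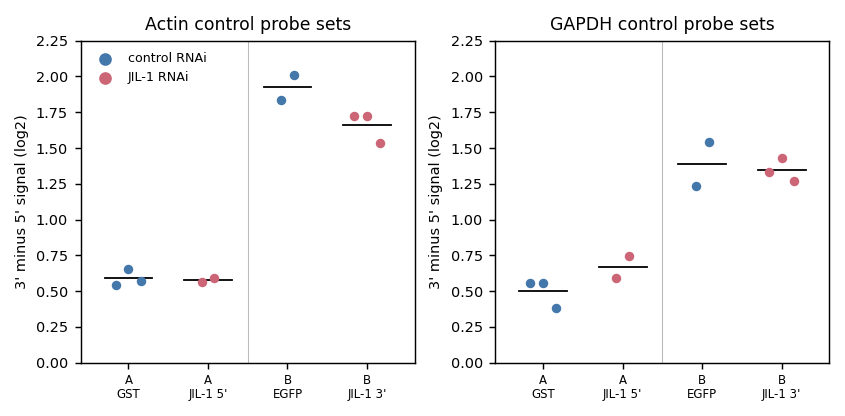
Log2 signal of the 3' minus the 5' control probe set of actin (left) and GAPDH (right) in each of the 10 samples, by batch and dsRNA; points are samples and lines are group means. Batch A samples lie between 0.38 and 0.74 and batch B samples between 1.23 and 2.01.

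After JIL-1 RNAi, Hr39 and br rose and EcR rose by a small amount, whereas no probe set of usp or ftz-f1 was called. In all, 4 of the 11 tested probe sets rose and none fell, namely 1 of EcR, 2 of br and 1 of Hr39. Among all 7096 tested probe sets 20.1% rose and 14.7% fell, and the median change was 0.20 over the 11 against 0.05 over all. At an unadjusted p under 0.05 limma also gave 4 higher and none lower, and 1929 higher and 1275 lower among the 7096. The members were chosen with results of these data known, and probe sets of 1 gene share that gene, so the count is given as a description.

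**Figure D2:**
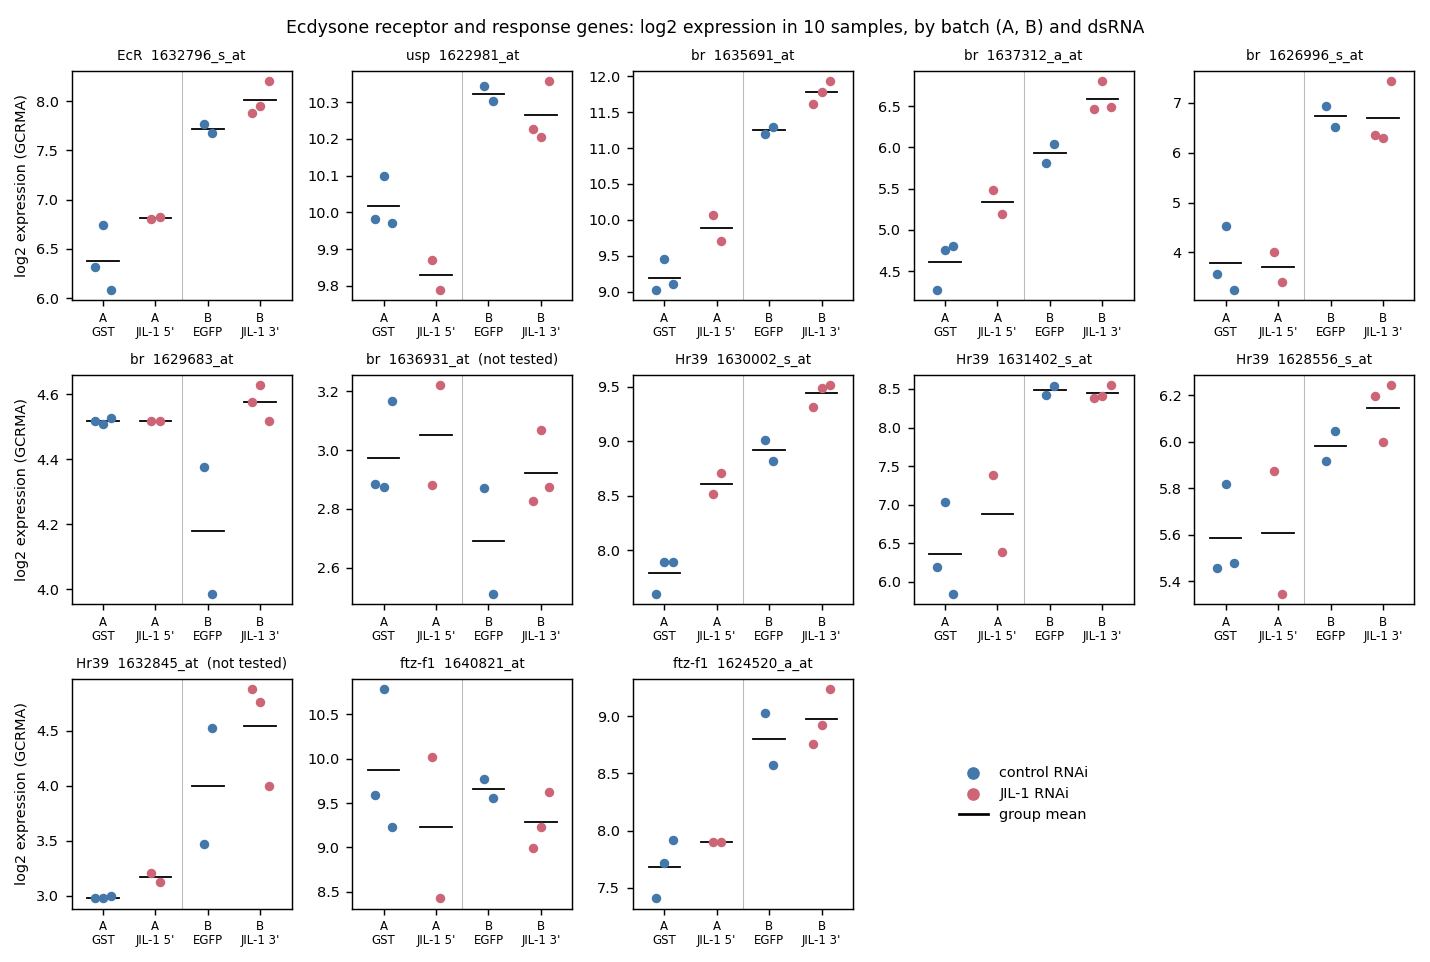
Log2 expression of the 13 probe sets in the 10 samples, by batch (A, B) and dsRNA; points are samples, lines are group means, and each panel has its own vertical axis. EcR, br 1635691_at, br 1637312_a_at and Hr39 1630002_s_at stand in the order of the axis, left to right, with 4 groups that do not overlap, and 9 of the 11 tested probe sets have every batch B sample above every batch A sample.

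EcR, the hormone-binding subunit of the receptor, had 1 probe set (1632796_s_at; the gene lies on arm 2R). Its level in batch A was 6.32, 6.74 and 6.09 in the controls and 6.80 and 6.82 after JIL-1 RNAi. In batch B it was 7.76 and 7.67 in the controls and 7.88, 7.95 and 8.20 after JIL-1 RNAi. The JIL-1 RNAi samples lay above the controls in both batches without overlap, although control replicate 2 came close to them in batch A.
EcR rose by 0.36 (SE 0.12, adjusted p = 0.037), which is 1.29-fold. The call was lost when any of 8 of the 10 samples was left out (changes of 0.29 to 0.44, adjusted p of 0.00769 to 0.095, the call being kept without control replicate 2 or JIL-1 RNAi replicate 3) and when the actin 3' minus 5' signal was added as a covariate (0.38, adjusted p = 0.096). Within batch A the change was 0.43 (SE 0.17, adjusted p = 0.0926) and within batch B 0.29 (SE 0.17, adjusted p = 0.277), neither of which passed.

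Ultraspiracle (usp), the fly counterpart of the vertebrate RXR and the partner of EcR, had 1 probe set (1622981_at, on the X). It was measured at 9.98, 10.10 and 9.97 in the batch A controls, at 9.87 and 9.79 after JIL-1 RNAi, at 10.34 and 10.30 in the batch B controls, and at 10.23, 10.21 and 10.36 after JIL-1 RNAi. The knockdown samples were below the controls in batch A and overlapped with them in batch B. The difference over both batches was -0.12 (SE 0.06, adjusted p = 0.113) and was not called. The signs of EcR and usp differed, but the difference between the subunits was not tested.

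Among the early genes, br (on the X) was represented by 5 probe sets that did not give 1 answer. The probe set 1635691_at was at 9.03, 9.46 and 9.10 in the batch A controls and at 10.07 and 9.71 after JIL-1 RNAi, and in batch B at 11.20 and 11.29 in the controls and 11.61, 11.78 and 11.93 after JIL-1 RNAi. Groups did not overlap in either batch. Its rise was 0.61 (SE 0.11, adjusted p = 0.00206), or 1.53-fold, with 0.69 (SE 0.15, adjusted p = 0.0104) within batch A and 0.53 (SE 0.15, adjusted p = 0.0456) within batch B.

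The second rising probe set of br, 1637312_a_at, of the type whose probes match several transcripts of 1 gene, followed the same order. It was at 4.28, 4.75 and 4.80 in the batch A controls against 5.48 and 5.19 after JIL-1 RNAi, and at 5.81 and 6.05 in the batch B controls against 6.47, 6.80 and 6.49. Again no knockdown sample overlapped with the controls of its batch. The rise was 0.69 (SE 0.12, adjusted p = 0.00183), or 1.62-fold, and it passed within batch A (0.73, SE 0.18, adjusted p = 0.0154) and within batch B (0.66, SE 0.18, adjusted p = 0.0331).

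The other br probe sets were not called. The probe set 1626996_s_at is of the type whose probes can be shared between transcripts, as are the EcR probe set and all tested Hr39 probe sets. The levels of br 1626996_s_at were 3.56, 4.54 and 3.25 in the batch A controls, 4.02 and 3.40 after JIL-1 RNAi, 6.93 and 6.52 in the batch B controls and 6.36, 6.30 and 7.44 after JIL-1 RNAi. Its groups overlapped in both batches, and the change of -0.05 (SE 0.29, adjusted p = 0.902) was smaller than its error. The probe set 1629683_at had the identical value of 4.52 in 4 samples, close to all other batch A values, and lay at 4.38 and 3.99 in the batch B controls and 4.58, 4.63 and 4.52 after JIL-1 RNAi. Over both batches it differed by 0.20 (SE 0.09, adjusted p = 0.127), and within batch B by 0.39 (SE 0.10, adjusted p = 0.0294). Without control replicate 5 the difference over both batches was 0.08 (adjusted p = 0.357), while it was called with quantile normalization (0.34, adjusted p = 0.0144), array weights (0.28, adjusted p = 0.0419) or the GAPDH covariate (0.25, adjusted p = 0.04). The fifth, 1636931_at, had all 10 values between 2.51 and 3.22 and was not tested. The br transcripts that each probe set matches are not annotated in the sources used here.

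Hr39 (on arm 2L), an orphan nuclear receptor of the same family as Ftz-f1, had the smallest adjusted p among the members. Its probe set 1630002_s_at was at 7.60, 7.89 and 7.89 in the batch A controls and at 8.51 and 8.71 after JIL-1 RNAi. In batch B the controls were at 9.01 and 8.82 and the JIL-1 RNAi samples at 9.32, 9.49 and 9.51. All knockdown samples lay above the controls of their batch.
The rise was 0.67 (SE 0.09, adjusted p = 5.06e-04), or 1.59-fold, and it exceeded the changes of 98.9% of all tested probe sets. It passed within batch A (0.82, SE 0.12, adjusted p = 0.00128) and within batch B (0.53, SE 0.12, adjusted p = 0.0157), and in every fit that left out 1 sample (0.60 to 0.74).

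A further Hr39 probe set, 1631402_s_at, was at 6.19, 7.03 and 5.84 in the batch A controls and 7.38 and 6.38 after JIL-1 RNAi, and at 8.43 and 8.54 in the batch B controls against 8.38, 8.41 and 8.55. Its groups overlapped in both batches, and the change of 0.25 (SE 0.25, adjusted p = 0.467) was no larger than its error. Another, 1628556_s_at, was at 5.46, 5.82 and 5.48 against 5.87 and 5.35 in batch A and at 5.92 and 6.05 against 6.20, 6.00 and 6.24 in batch B, with overlap in both and a change of 0.09 (SE 0.11, adjusted p = 0.55). The rise of Hr39 therefore rests on 1 of its 3 tested probe sets. The fourth, 1632845_at, had a mean under 4 and was not tested: it lay at 2.98 to 3.21 in batch A, and in batch B at 3.47 and 4.53 in the controls. After JIL-1 RNAi it was at 4.88 and 4.76 in replicates 3 and 4, and replicate 5 lay between the controls.

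For ftz-f1 (on arm 3L), which makes tissues competent to respond to the prepupal hormone pulse, the probe sets differed in sign and neither was called. The probe set 1640821_at was at 9.59, 10.78 and 9.23 in the batch A controls, 10.02 and 8.43 after JIL-1 RNAi, 9.77 and 9.56 in the batch B controls and 8.99, 9.22 and 9.63 after JIL-1 RNAi. The batch A values spanned 2.35, far more than the fitted difference of -0.51 (SE 0.35, adjusted p = 0.273). That difference ran from -0.79 to -0.17 with each sample left out in turn, and was -0.17 without JIL-1 RNAi replicate 2. The probe set 1624520_a_at was at 7.41, 7.72 and 7.92 against 7.90 in both knockdown samples of batch A, and at 9.03 and 8.58 against 8.76, 8.92 and 9.23 in batch B. Its groups overlapped in both batches, with a difference of 0.19 (SE 0.13, adjusted p = 0.259).

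**Figure D3:**
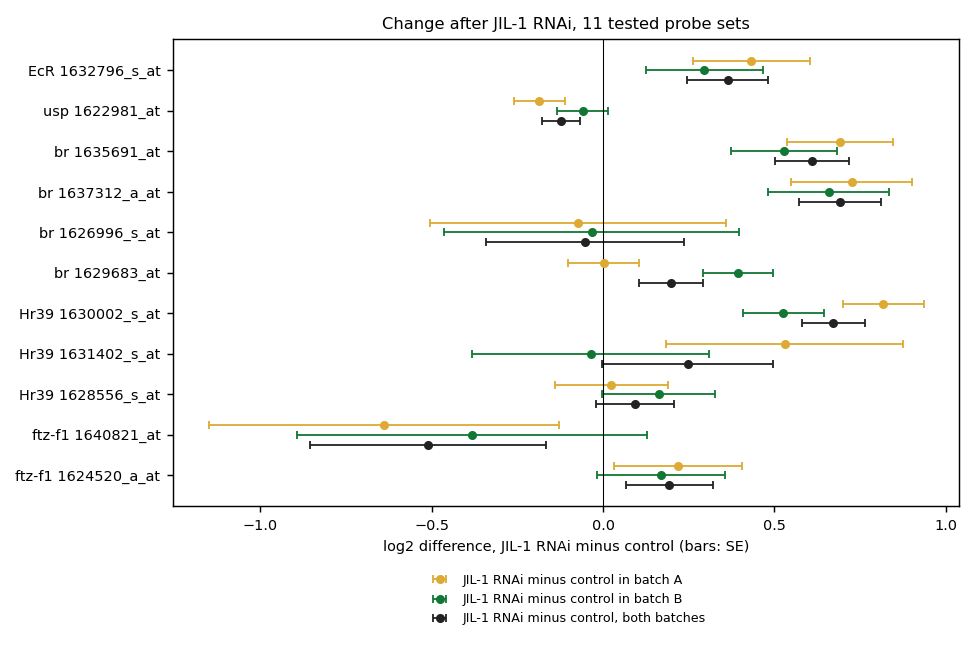
Log2 difference between JIL-1 RNAi and control samples for the 11 tested probe sets, within batch A, within batch B and over both batches; bars are the SE. The called probe sets of br (1635691_at, 1637312_a_at) and Hr39 (1630002_s_at) lie between 0.53 and 0.82 in each batch.

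The changes with either JIL-1 dsRNA were then compared. The difference of the change in batch B from that in batch A was called for none of the 11 probe sets, against 1.04% of all tested, and 1 had an unadjusted p under 0.05 in limma's test (br 1629683_at, 0.39, SE 0.14). For Hr39 1630002_s_at this difference was -0.29 (SE 0.17, adjusted p = 0.459), for br 1635691_at -0.16 (SE 0.22, adjusted p = 0.779) and for EcR -0.14 (SE 0.24, adjusted p = 0.841). Within batch A 3 of the 11 were called higher and none lower, where 16.4% of all tested were called higher and 10.7% lower. Within batch B 4 were called higher and none lower, where 7.37% and 10% of all tested were. The 2 called br probe sets and Hr39 1630002_s_at were called in each batch, and br 1629683_at only in batch B. That last probe set had the identical value of 4.52 in 4 samples and spanned only 0.02 in batch A. Its batch B call rests on 2 low controls, at 4.38 and 3.99. By the values alone, in batch A 4 of the 11 had every knockdown sample above every control and 1, usp, every one below, against 32.7% and 18.5% of all tested. In batch B 5 had them all above and none below, against 29% and 25.6%.

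Probe sets of EcR, br, Hr39 and ftz-f1 were also measured at higher levels in batch B than in batch A. For br, Hr39 and ftz-f1 this did not hold for every probe set. In the control samples 8 of the 11 probe sets were higher in batch B than in batch A and 1 was lower, where 37.7% of all tested were higher and 25% lower. The 8 include br 1626996_s_at, whose batch A means were under 4 (3.78 in the controls, 3.71 after JIL-1 RNAi). It passed the filter only through batch B (means 6.73 and 6.70), so its difference adds no support to the count. The members' median difference was 1.12, against 0.10 over all tested. With every array set to a common median the median over all tested became -0.04, and the calls of EcR, Hr39, ftz-f1 and of the higher br probe sets were kept.

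EcR was higher by 1.34 in the batch B controls (SE 0.17, adjusted p = 1.58e-04), a 2.53-fold difference. For br the difference was 2.05 by 1635691_at (SE 0.15, adjusted p = 8.29e-06), or 4.14-fold, and 1.32 by 1637312_a_at (SE 0.18, adjusted p = 2.13e-04). The br probe set 1626996_s_at, which had 3 batch A values under 4, was at least 5.86-fold higher with such values raised to 4 (log2 2.55, adjusted p = 1.33e-04). The lower one was br 1629683_at (-0.34, SE 0.10, adjusted p = 0.0176), a call lost without control replicate 5 (-0.14, adjusted p = 0.184).

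Both orphan nuclear receptor genes had probe sets that were higher in the batch B controls. Hr39 was higher by 1.12 (SE 0.12, adjusted p = 5.34e-05) by 1630002_s_at and by 2.13 (SE 0.35, adjusted p = 6.30e-04) by 1631402_s_at, while 1628556_s_at at 0.40 (SE 0.16, adjusted p = 0.0594) was not called. The ftz-f1 probe set 1624520_a_at was higher by 1.12 (SE 0.19, adjusted p = 7.29e-04), and 1640821_at differed by -0.20 (SE 0.51, adjusted p = 0.746). The call of usp was the smallest, at 0.31 (SE 0.07, adjusted p = 0.00589), which is 0.20 above the median of all tested, and it was lost with arrays set to a common median (0.17, adjusted p = 0.0992).

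The JIL-1 RNAi samples, which are other cultures than the controls, showed the same order of batches. In them 9 of the 11 probe sets were higher in batch B and none lower, against 32.4% and 27.8% of all tested, and at an unadjusted p under 0.05 limma's test gave the count of 9 too. The differences were 1.20 for EcR (SE 0.17), 1.89 for br 1635691_at (SE 0.15), 0.83 for Hr39 1630002_s_at (SE 0.12), 1.07 for ftz-f1 1624520_a_at (SE 0.19) and 0.43 for usp (SE 0.07). In 9 of the 11 tested probe sets every sample of batch B lay above every sample of batch A, which holds for 28.7% of all tested. The exceptions were br 1629683_at and ftz-f1 1640821_at. Both counts of 9 include br 1626996_s_at, which passed the filter only through batch B.

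**Figure D4:**
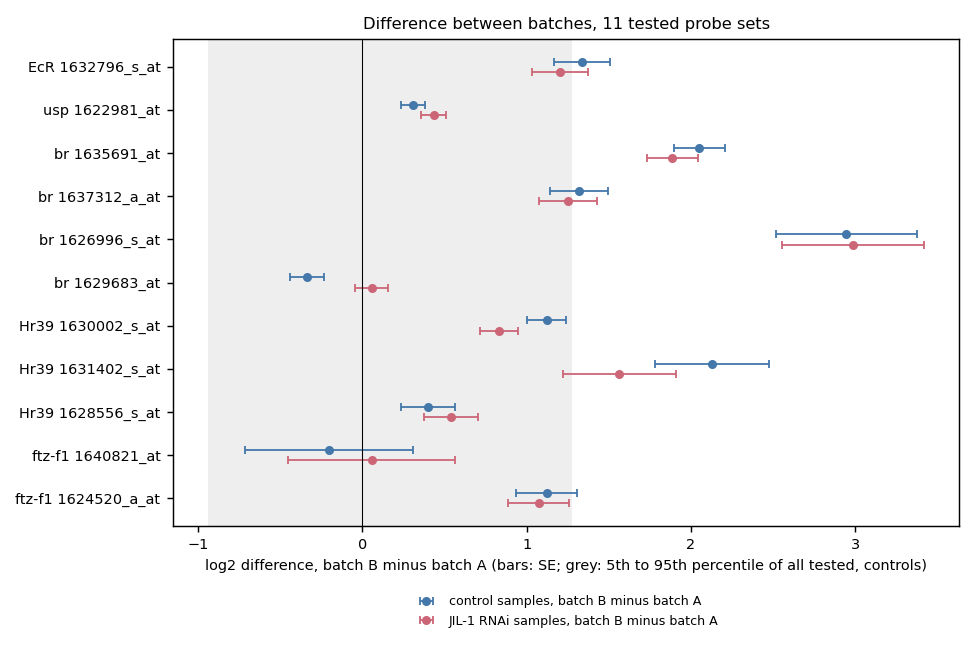
Log2 difference between batch B and batch A for the 11 tested probe sets, in the control samples (blue) and in the JIL-1 RNAi samples (red); bars are the SE and the grey band spans the 5th to the 95th percentile of all 7096 tested in the controls, -0.94 to 1.27. EcR, 3 probe sets of br and Hr39 1631402_s_at lie above the band in the controls.

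Other measures moved with the batch too. The 3' minus 5' signals of the control transcripts were higher in batch B, as given above. Of 3 neuron markers nSyb was at the lower end, and elav (3.04) and brp (0.54) were both higher in the batch B controls. The summed neuron markers lay between 6.51 and 7.02 in batch A and 7.99 and 8.63 in batch B. The muscle gene bt, the 1 muscle marker analysed, was lower in the batch B controls (-1.12). Of the 12 blood cell markers 3 were higher and 6 lower in the batch B controls, where 37.7% of all tested probe sets were higher and 25% lower. The phagocytosis receptor genes NimC1 (-4.67) and Sr-CI (-1.34) were among the lower ones. The summed blood cell levels, carried by the brightest markers, were 16.33 to 16.52 in batch A and 16.15 to 16.33 in batch B. The part of these measures in the batch differences of the EcR, br, Hr39 and ftz-f1 probe sets was not tested. Between RNAi groups 1 of the 12 blood cell markers rose and 5 fell, where 20.1% of all tested probe sets rose and 14.7% fell. NimC1 (-2.14) and Sr-CI (-1.30) were among those that fell. Neither tested neuron marker nor bt was called. The summed blood cell markers lay at 16.15 to 16.52 in the controls and 16.20 to 16.37 after JIL-1 RNAi. The 3 germ line markers were not tested. Their summed level lay at 3.79 to 3.84 in the controls and 4.38 to 5.71 after JIL-1 RNAi. The difference came from bam, at 2.20 to 2.37 in the controls and 3.52 to 5.43 after JIL-1 RNAi, while vas was at the lower end in every sample and nanos at or near it in all but JIL-1 RNAi replicate 3 (2.88). The part of these markers in the changes of EcR, br and Hr39 was not tested.

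For 4 probe sets the 4 groups stood in 1 order without overlap: batch A controls lowest, then batch A JIL-1 RNAi, batch B controls and batch B JIL-1 RNAi. These were EcR, br 1635691_at, br 1637312_a_at and Hr39 1630002_s_at, or 4 of the 11, and 4.89% of all tested probe sets had this order. The same 4 were called higher after JIL-1 RNAi and higher in the batch B controls, so the order repeats those calls. It was not among the planned results and is given as a description. For Hr39 the lowest batch B control, 8.82, lay close above the highest batch A knockdown sample, 8.71, so these neighbouring groups were separated by less than the spread within either. For EcR the closest neighbours were the batch A controls and knockdown samples, where control replicate 2 at 6.74 lay just under the lower knockdown sample at 6.80.

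The genes with the most similar profile over the 10 arrays were found by the root mean square difference of the log2 values after each probe set was centred on its own mean. For EcR they were Gug (0.11), Tlk (0.13) and Prosap (0.13). For br 1635691_at they were CG9932 (0.12), tna (0.13) and csw (0.18), and for br 1637312_a_at baz (0.17), CG1812 (0.18) and Ptpmeg2 (0.18). For Hr39 1630002_s_at they were CG31368 (0.12), achi (0.12) and qless (0.13). Being chosen for their likeness over the same arrays, all 12 shared the members' differences, at 0.92 to 2.31 between the control batches and 0.27 to 0.65 after JIL-1 RNAi. None of the members' own probe sets were candidates, and the likeness is a description over samples that share 2 batches.

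In the wider ecdysone pathway the shares of rises and falls were near those over all tested probe sets. Of 66 listed genes in 5 lists 60 had a probe set of their own, 27 passed the filter, and of these 6 rose, 3 fell and 18 were not called, with a median change of 0.07 against 0.05 over all tested. Among all tested 20.1% rose and 14.7% fell.

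Among genes of hormone import, synthesis and turnover 3 of 6 tested rose and none fell (3 and none at an unadjusted p under 0.05 by limma). Among all tested probe sets 20.1% rose and 14.7% fell, and the list is too small to give a direction. Start1, a carrier-like protein with a lipid transfer domain, was at 9.54, 9.61 and 9.69 in the batch A controls against 10.10 and 9.86, and at 9.60 and 9.74 in the batch B controls against 10.00, 9.91 and 10.00. Its groups did not overlap and it rose by 0.33 (SE 0.06, adjusted p = 0.00313). The zinc finger genes mld and woc, which are needed for ecdysone production in the larval ring gland, rose by 0.46 (SE 0.10, adjusted p = 0.00735) and 0.21 (SE 0.06, adjusted p = 0.0174), the latter not called without JIL-1 RNAi replicate 2 (0.18, adjusted p = 0.0609). The call of mld was lost without the filter (adjusted p = 0.0528), without a batch term (0.57, adjusted p = 0.121), with the replicate block (adjusted p = 0.0698) and with the actin covariate (0.34, adjusted p = 0.0598). The call of woc was lost in 2 of 13 processing alternatives. Within batch A the difference of mld was 0.22 (SE 0.10, adjusted p = 0.143) and within batch B 0.70 (SE 0.10, adjusted p = 0.00198). Oatp74D, the ecdysone importer, named here after its values were seen, was not called (-0.08, SE 0.07, adjusted p = 0.364). The 9 genes not tested, which include the synthesis enzymes nvd, spo, spok, phtm, dib, sad and shd, had mean levels of at most 2.56, at or near the lower end of the scale.

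Of 9 tested receptor cofactors and partners 2 rose and none fell (3 and 1 at an unadjusted p under 0.05 by limma). The rises are near the share over all tested, where 20.1% rose and 14.7% fell. The coactivator gene tai, whose product binds the receptor, rose by 0.28 (SE 0.07, adjusted p = 0.0148), a call lost without control replicate 5 (0.23, adjusted p = 0.0521). The gene bon, a TIF1-type cofactor of nuclear receptors, rose by 0.22 (SE 0.06, adjusted p = 0.0226), and its call was lost without JIL-1 RNAi replicate 2 (0.20, adjusted p = 0.0703) or control replicate 5 (0.20, adjusted p = 0.0677). The calls of tai and bon were each also lost in 4 of 13 processing alternatives. In the batch B controls 8 of the 9 cofactor and partner genes were higher than in the batch A controls and none was lower. The counts were 2 higher and none lower of the 6 import, synthesis and turnover genes, 5 higher and 3 lower of the 9 hormone responsive genes, and 1 higher and none lower of the 3 nuclear receptors. Over all 27 that was 16 higher and 3 lower, where 37.7% of all tested were higher and 25% lower.

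Of 9 tested genes among the other hormone responsive genes none rose and 3 fell (none and 3 at an unadjusted p under 0.05 by limma). Over all tested probe sets 20.1% rose and 14.7% fell, and these counts are small. Sox14, an HMG box factor induced through EcR, was at 8.25, 8.55 and 8.19 in the batch A controls against 7.97 and 7.79, and at 7.68 and 7.71 in the batch B controls against 7.05, 7.15 and 7.14. Its groups did not overlap in either batch, and it fell by 0.51 on the log2 scale (SE 0.08, adjusted p = 8.08e-04). Cth, listed as Eip55E and encoding cystathionine gamma-lyase, fell by 0.26 (SE 0.06, adjusted p = 0.00645). The orphan nuclear receptor gene Hr78 fell by 0.17 (SE 0.06, adjusted p = 0.0399), a call lost in 7 of the 10 fits that left out a sample. Of 13 processing alternatives the call was lost in 1 for Sox14, 2 for Cth and 5 for Hr78. The fall of Sox14 and the rises of EcR and br thus had opposite signs, and the batch difference of Sox14 in the controls was also opposite (-0.64, SE 0.11, adjusted p = 8.30e-04).

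Kr-h1, an early-responding zinc finger gene named here after its values were seen, was not called after JIL-1 RNAi (0.19, SE 0.12, adjusted p = 0.261) but was higher in the batch B controls by 1.80 (SE 0.18, adjusted p = 4.11e-05). The 13 hormone responsive genes that had a probe set but were not tested, among them Hr3, Hr4, Eip78C and Eip93F, had mean levels of at most 3.89, and 11 of them under 3. Eip93F was above 4 only in the batch B controls, at 5.43 and 5.39, against 2.66, 3.51 and 3.41 in the batch B knockdown samples and 2.24 to 3.56 in batch A. Of 3 tested other nuclear receptors Hr96, a receptor linked to xenobiotic and lipid responses, rose by 0.24 (SE 0.05, adjusted p = 0.00554). Its call was lost in 2 of 13 processing alternatives. None of the 3 fell, and at an unadjusted p under 0.05 limma also gave 1 rise and no fall. Over all tested probe sets 20.1% rose and 14.7% fell. The juvenile hormone receptor genes Met and gce had mean levels of 3.43 and 2.46 and were not tested.

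**Figure D5:**
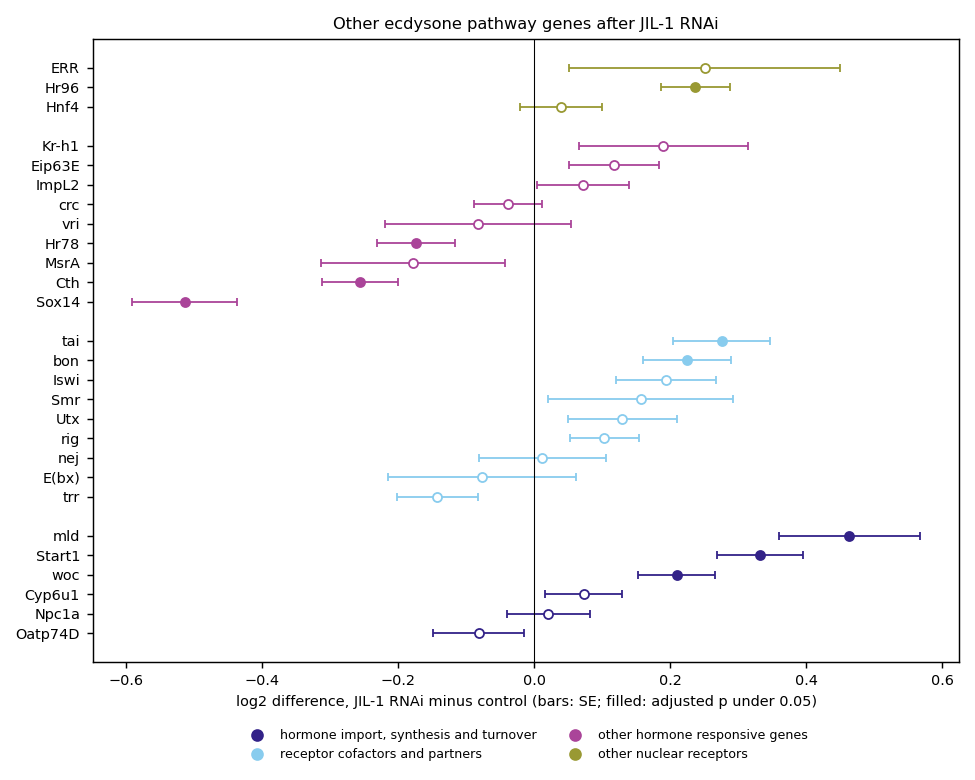
Log2 difference between JIL-1 RNAi and control samples over both batches for the 27 tested genes of the other ecdysone pathway lists, grouped by list; bars are the SE and filled points have an adjusted p under 0.05. The 6 rises lie between 0.21 and 0.46 and the 3 falls between -0.51 and -0.17.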

How the data were processed

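The deposited table holds log2 expression values that the authors made with GCRMA, per the submitters' processing notes, from Affymetrix arrays of Drosophila S2 cells. It holds 18952 probe sets in 10 samples, and its values run from 2.20 to 15.65. The sources used here do not say whether the batches were normalized together. About 50.4 to 51.7% of probe sets lay within 0.01 of the lowest value in each sample, where differences cannot be measured. Arrays give no read depth, and their number limits the precision. Genes were named from the platform annotation: 13647 probe sets had 1 gene, 402 several and 4720 none, 183 were array controls, and 13544 matched a gene ID of the RefSeq Release 6 table, which gave current names and chromosome arms.

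All probe sets with a mean log2 value above 4 were fitted in limma 3.58.1 (R 4.3.3), with terms for batch and RNAi group, empirical Bayes variances and Benjamini-Hochberg adjustment over all 7096. A model with a mean per batch and group gave the differences within batches, between batches and between the changes. P-values set each difference against the spread between these samples that the fit leaves. They do not tell how far results would vary with other dsRNAs or batches. The script was tested on simulated data. No 2 samples held identical values.

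The members and gene lists were chosen with earlier results of these data known. All member probe sets are named, of each other list the called genes (at most 4), and for each called member the 3 genes nearest in profile. Genes with several probe sets are given, in those lists, by the one with the highest mean. Blood cell, neuron, muscle, fat body, ovarian somatic, germ line and ring gland markers were summed on the linear scale or counted. Alternatives covered the batch term, filter, scaling, variance model, array weights, raised low values, 1 probe set per gene, the replicate block, the threshold and each sample left out. Covariates from the actin and GAPDH controls were chosen after seeing the data.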

Additional observations from a re-analysis of the deposited data

Results flagged for a closer look

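In the br probe set 1629683_at the control replicate 5 of batch B lay at 3.99, below the other controls at 4.38 to 4.53. Its gap to the nearest control was 0.722 of the group's whole range, above the critical value of 0.71 for 5 samples. The test pools the controls of both batches and takes no account of the batch difference. Chance gives such a gap in about 1 of 20 tests, and 26 such tests were made, so 1 such gap can arise by chance. Without this sample the difference of the controls between batches in this probe set was -0.14 (adjusted p = 0.184 by limma).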

How the results depend on the processing

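The rises of br 1635691_at (0.52 to 0.66), br 1637312_a_at (0.61 to 0.74) and Hr39 1630002_s_at (0.60 to 0.74) kept their calls in all 10 fits without 1 sample and in every other alternative in which they were tested except the fit without a batch term. Without a batch term limma called 0 of the 11 probe sets (2 at an unadjusted p under 0.05), 491 of all tested in place of 2471, and 1 pathway gene in place of 9. EcR lost its call in 8 of the 10 fits without 1 sample and in 7 other alternatives: without a batch term (0.62, adjusted p = 0.41), without the filter (adjusted p = 0.178), with a common median (0.0509), quantile normalization (0.0669), the replicate block (0.0743) and the actin (0.096) or GAPDH (0.0686) covariate. Without the filter 1470 of all probe sets and 5 pathway genes were called. With the actin covariate 5 pathway genes were called.

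Samples of the same replicate number had correlations of their deviations from the batch and group means of -0.37 to 0.25. These cannot settle whether the numbers pair the samples. In a group of 2 samples the deviations mirror each other, and replicate 3 lies in batch A for the control and in batch B for JIL-1 RNAi. With the replicate block 1185 of all tested, 3 of the 11 member probe sets and 2 pathway genes were called. With each sample left out in turn, 3 to 4 members, 1823 to 2311 of all tested and 6 to 10 pathway genes were called, and 8 to 10 members differed between the control batches. With 1 probe set per gene 4 of 5 members did. In each alternative run for it (filter, scaling, variance model, array weights, raised low values, 1 probe set per gene and each sample left out) 0 members had a change that differed between batches in limma's test, with 0 to 2 at an unadjusted p under 0.05.

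Signs turned only for uncalled values. For br 1626996_s_at the change became 0.54 without a batch term, 0.054 with quantile normalization and 0.00296 with the GAPDH covariate, and ran from -0.22 to 0.12 with each sample left out. For Hr39 1631402_s_at it then ran from -0.0099 to 0.38, and the batch difference of ftz-f1 1640821_at from -0.52 to 0.25. The causes were not tested. Values near the lower end of the scale carry no order.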

Other observations

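Control replicate 2 and JIL-1 RNAi replicate 1, both of batch A, were the higher samples of their groups in several of these probe sets. The pattern was noticed, and the minimum gap of 0.3 was set, after the values were seen, so the counts are a description. In 5 of the 11 tested probe sets control replicate 2 was the highest batch A control and JIL-1 RNAi replicate 1 lay above replicate 2, both by over 0.3 on the log2 scale, and 2.82% of all 7096 tested probe sets had this pattern. The 5 were br 1635691_at, br 1626996_s_at, Hr39 1631402_s_at, Hr39 1628556_s_at and ftz-f1 1640821_at. In ftz-f1 1640821_at the gaps were 1.19 and 1.59. Without a minimum gap the pattern held for 6 of the 11 and for 13.8% of all tested.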
